A study of Homo sapiens with 10 samples.

Results

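The genes described here encode mitotic kinases and the regulators of the anaphase-promoting complex, 10 of the 27942 genes in the deposited expression table: the kinases PLK1, AURKA and AURKB, the CDK1-activating phosphatases CDC25B and CDC25C, the coactivators CDC20 and FZR1, the inhibitor FBXO5, the conjugating enzyme UBE2C and the substrate PTTG1. They were matched by the gene symbol that opens each row's annotation, and they were chosen by measured values of these same libraries, their log2 differences over the stiffness series and in high glucose, where PLK1 and CDC20 had been seen to be lower. Their differences between the groups, intermediate gels included, are therefore given as a description, without a test. The cells were MCF10A, an established, non-tumorigenic line of human mammary epithelial cells, grown for 24 h on fibronectin-coated polyacrylamide gels. There were 5 groups of 2 libraries: gels of 400 Pa (soft), 1 kPa, 6 kPa and 60 kPa (stiff) in medium with 5 mM glucose, and gels of 400 Pa in medium with 25 mM glucose. The labels put EGF, insulin, hydrocortisone, cholera toxin and horse serum in the culture medium, as is usual for this line, and name no drug or genetic change in any group. Each library was made from a pool of 4 gel cultures, so the spread between the 2 libraries of a group is that between pools of one line. High glucose was used on the softest gel only, so stiffness and glucose were each varied from the same 2 libraries at 400 Pa and 5 mM.

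Entry into mitosis is driven by CDK1 with cyclin B. The WEE1 kinase holds CDK1 inactive, CDC25 phosphatases remove that block, and Aurora A and Polo-like kinase 1 feed into the same switch. Exit from mitosis is driven by the anaphase-promoting complex (APC/C), a ubiquitin ligase that takes CDC20 as its coactivator in early mitosis and CDH1, the product of FZR1, in late mitosis and G1. The mitotic checkpoint holds CDC20 back until chromosomes are attached. Securin, the product of PTTG1, is then degraded and separase opens the cohesin rings. Most of these mRNAs are made in G2 and M phase, so their level in a bulk culture also depends on how many cells are dividing: in these libraries a larger share of cells in G2 and M phase and more mRNA in each such cell cannot be told apart.

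The libraries held 2.98 to 28.61 M mapped reads (M, in units of 1e6), of which 62.0 to 71.7% lay in exons, and the 10 genes carried from 82 reads (CDC25C in the shallower 6 kPa library) to 7894 reads (CDC25B in the deeper 400 Pa library). The 6 markers of mammary epithelial cells summed to 2833 to 2937 FPKM (reads per kilobase of exon and per 1e6 mapped reads) at 400 Pa, 1916 to 2154 at 60 kPa and 1914 to 1915 at 25 mM, and none was at 0. KRT5 and KRT17 had the highest means of the 6, 1433 and 615 FPKM. At 60 kPa all but TP63 were called lower (limma, adjusted p under 0.05). After the correction for GC content described below, ITGB4, KRT17 and CDH1 still were. At 25 mM KRT5, KRT14 and KRT17 were called lower and TP63 higher, with and without that correction. The markers of fibroblasts and endothelial cells were low: the 6 of fibroblasts summed to 11.9 to 19.3 FPKM with COL1A2 and COL3A1 at 0 in every library, and the 4 of endothelial cells to 0.707 to 1.13 FPKM with VWF at 0. The fibroblast sum was mostly DCN, which had a mean of 14.5 FPKM and fell at 60 kPa by 0.50 ± 0.11 on the log2 scale (SE; limma, adjusted p 0.014), by 0.96 ± 0.10 after the correction for GC content described below (adjusted p 0.0012), and with that correction by 0.65 ± 0.10 at 6 kPa (adjusted p 0.019). Of the leukocyte genes CD68, PTPRC, LYZ and CD3E, the last 3 did not exceed 0.186 FPKM in any library. CD68 had a mean of 10.7 FPKM and fell at 60 kPa by 0.51 ± 0.16 (limma, adjusted p 0.049; GC-corrected -0.35 ± 0.12, adjusted p 0.098). The part of these markers in the results was not tested. The libraries also differed in how their values followed the GC content of transcripts. Across 12650 genes, Spearman's rho between GC content and a library's deviation from the gene means was 0.60 to 0.66 in the 4 libraries at 400 Pa and 1 kPa and 0.62 in the deeper 6 kPa library. It was -0.31 in the shallower 6 kPa library, -0.57 and -0.60 at 60 kPa and -0.64 and -0.66 at 25 mM. The GC content of the 10 transcripts ran from 37.9% (FBXO5) to 62.6% (FZR1), so differences of the 10 genes are given as deposited and again after this dependence was removed from every library (GC-corrected).

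Levels per transcript length placed CDC20, PTTG1, UBE2C, CDC25B and PLK1 above the other 5 genes in every library. Over the 10 libraries the means were 135 FPKM for CDC20, 128 for PTTG1, 98.9 for UBE2C, 86.8 for CDC25B and 79.1 for PLK1, then 46.0 for AURKA, 38.8 for AURKB, 13.2 for FZR1, 12.2 for CDC25C and 11.7 for FBXO5. The ranges over libraries of the 5 highest genes overlapped one another in a chain from CDC20 to PLK1, and those of FZR1, CDC25C and FBXO5 overlapped one another, as did those of AURKA and AURKB. The value of AURKB was computed by the authors on a noncoding transcript of the gene. UBE2C, PTTG1 and AURKA have related copies in the table (UBE2CP5 at a mean of 1.56 FPKM, PTTG3P at 0.0629, PTTG2 at 0.0451 and AURKAPS1 at 0.428), and reads shared with them could not be separated here. PLK1 overlaps ERN2 on the opposite strand, which lay between 0.916 and 1.80 FPKM, and the counting command sets no strand option.

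**Figure D1:**
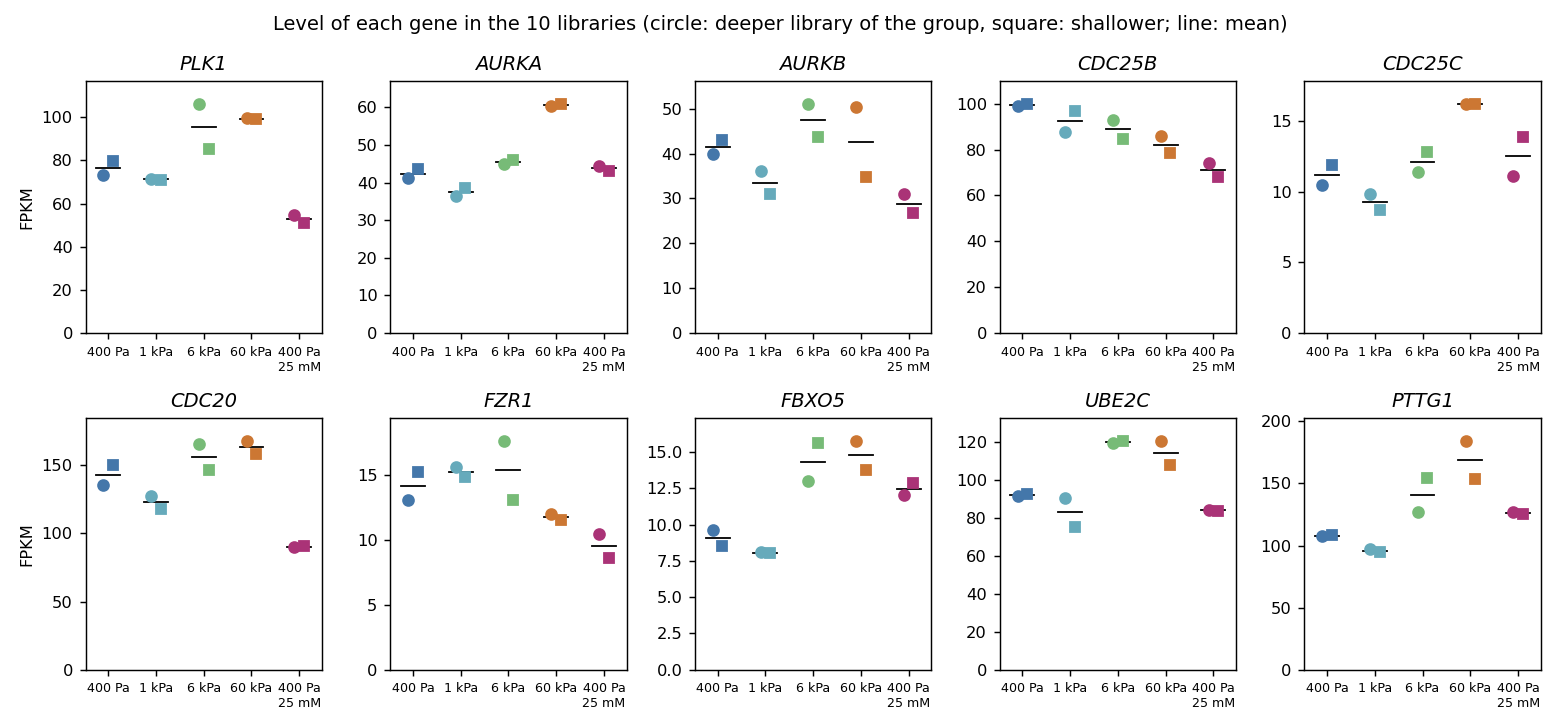
Level of each of the 10 genes in FPKM (vertical axis, from 0) in the 2 libraries of each group (horizontal axis: gel stiffness at 5 mM glucose, and 400 Pa at 25 mM), with circles for the deeper library, squares for the shallower and a line at the mean. PLK1 and CDC20 have their highest means at 6 and 60 kPa and their lowest at 25 mM, while PTTG1, AURKA, CDC25C and FBXO5 at 25 mM lie near or above their 400 Pa values.

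PLK1, the kinase that drives centrosome maturation and feeds into CDK1 activation, was higher on the stiff gel and lower in high glucose. It measured 73.3 and 79.7 FPKM at 400 Pa (the deeper library first, here and below), 71.5 and 70.8 at 1 kPa, 106 and 85.1 at 6 kPa, 99.5 and 99.3 at 60 kPa and 54.8 and 50.9 at 25 mM. Both libraries at 6 and at 60 kPa were above both at 400 Pa, and both at 25 mM were below every other library. The means were 76.5 ± 4.50 FPKM at 400 Pa, 99.4 ± 0.155 at 60 kPa and 52.8 ± 2.75 at 25 mM (SD, n = 2). The log2 difference from 400 Pa was 0.37 ± 0.11 (SE, here and below) at 60 kPa and -0.53 ± 0.11 at 25 mM. GC-corrected, these were 0.59 ± 0.06 and -0.30 ± 0.06, so the part of the contrast on the stiff side grew and that on the glucose side shrank.

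AURKA, the kinase of centrosomes and spindle poles, was higher at 60 kPa and close to its 400 Pa level in high glucose. Its libraries gave 41.1 and 43.5 FPKM at 400 Pa, 36.6 and 38.6 at 1 kPa, 45.1 and 45.9 at 6 kPa, 60.3 and 60.9 at 60 kPa and 44.5 and 43.1 at 25 mM. The 60 kPa pair stood above all other libraries, and the 25 mM pair overlapped that at 400 Pa. The log2 difference was 0.51 ± 0.09 at 60 kPa and 0.05 ± 0.09 at 25 mM as deposited. GC-corrected it was 0.29 ± 0.08 at 60 kPa and -0.23 ± 0.08 at 25 mM, so the high glucose value moved from near 0 to below it.

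AURKB, the kinase of the chromosomal passenger complex that corrects kinetochore attachments, had the widest spread at 60 kPa of the 3 kinases. It measured 40.0 and 43.0 FPKM at 400 Pa, 36.2 and 31.0 at 1 kPa, 51.1 and 43.8 at 6 kPa, 50.3 and 34.7 at 60 kPa and 31.0 and 26.7 at 25 mM. The 60 kPa libraries lay on either side of those at 400 Pa, and those at 25 mM were below them. The log2 difference at 60 kPa was 0.01 ± 0.17, and it was 0.27 without the shallower and -0.25 without the deeper 60 kPa library. At 25 mM it was -0.51 ± 0.17. GC-corrected, the values were 0.24 ± 0.13 and -0.26 ± 0.13.

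The phosphatases that release CDK1 from the WEE1 block differed from each other. CDC25B, which acts early at the centrosome, was highest at 400 Pa with 99.1 and 99.9 FPKM, followed by 87.8 and 96.8 at 1 kPa, 93.1 and 84.7 at 6 kPa, 85.7 and 78.6 at 60 kPa and 74.3 and 68.2 at 25 mM. Every other library was below both at 400 Pa. Its log2 difference was -0.28 ± 0.10 at 60 kPa and -0.48 ± 0.10 at 25 mM as deposited, and -0.01 ± 0.07 and -0.19 ± 0.07 GC-corrected, so that the difference on the stiff gel was near 0 after the correction. CDC25C, which acts on nuclear CDK1, measured 10.4 and 11.9 FPKM at 400 Pa, 9.82 and 8.71 at 1 kPa, 11.4 and 12.8 at 6 kPa, 16.2 and 16.2 at 60 kPa and 11.1 and 13.8 at 25 mM. Its 60 kPa libraries stood above all others, and those at 25 mM overlapped those at 400 Pa. The log2 difference was 0.50 ± 0.13 at 60 kPa and 0.14 ± 0.13 at 25 mM, and GC-corrected 0.36 ± 0.11 and -0.05 ± 0.11.

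The 2 coactivators of the APC/C also went apart. CDC20, which the checkpoint restrains, measured 136 and 150.0 FPKM at 400 Pa, 128 and 118 at 1 kPa, 166 and 147 at 6 kPa, 168 and 158 at 60 kPa and 90.3 and 90.5 at 25 mM. Its 25 mM libraries were below every other library, and the 60 kPa pair was above the 400 Pa pair. The log2 difference was 0.19 ± 0.10 at 60 kPa and -0.65 ± 0.10 at 25 mM, and GC-corrected 0.39 ± 0.05 and -0.44 ± 0.05. FZR1, whose product CDH1 keeps the APC/C active in G1, measured 13.1 and 15.3 FPKM at 400 Pa, 15.6 and 14.9 at 1 kPa, 17.7 and 13.1 at 6 kPa, 12.0 and 11.6 at 60 kPa and 10.4 and 8.64 at 25 mM. The 60 kPa and 25 mM libraries lay below the other 6. Its log2 difference was -0.24 ± 0.16 at 60 kPa and -0.53 ± 0.16 at 25 mM as deposited, and 0.10 ± 0.09 and -0.16 ± 0.09 GC-corrected. FZR1 has the highest GC content of the 10 genes, and its sign at 60 kPa differed between the 2 scales.

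PLK1 and CDC20 moved together over the libraries (Pearson's r of log2(FPKM + 1) 0.969 over 10 libraries that share groups and the dependence on GC content, a description), so their promoters are printed in full. Each window holds the 250 bases before and the 50 after the start in RefSeq on GRCh38.p14, plus strand for both genes, with capitals on TTTGAA or its reverse complement TTCAAA. The first of these, like TTCGAA, is a form of the cell cycle genes homology region, the element bound by the DREAM and MuvB complexes that time G2 and M phase transcription. The PLK1 window is chr16:23678639-23678938 and the CDC20 window chr1:43358731-43359030.
PLK1: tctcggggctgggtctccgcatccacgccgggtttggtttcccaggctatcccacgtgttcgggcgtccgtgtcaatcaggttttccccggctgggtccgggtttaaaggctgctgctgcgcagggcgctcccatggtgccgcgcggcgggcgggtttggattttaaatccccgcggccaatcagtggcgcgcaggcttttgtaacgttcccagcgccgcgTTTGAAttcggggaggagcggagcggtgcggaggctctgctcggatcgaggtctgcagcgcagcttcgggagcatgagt
CDC20: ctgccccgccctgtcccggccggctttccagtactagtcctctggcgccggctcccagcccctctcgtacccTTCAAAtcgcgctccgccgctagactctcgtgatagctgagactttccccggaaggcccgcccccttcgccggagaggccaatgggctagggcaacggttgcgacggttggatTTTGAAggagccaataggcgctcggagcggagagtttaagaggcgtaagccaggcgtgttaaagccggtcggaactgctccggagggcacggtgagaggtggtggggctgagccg
The match in PLK1 begins 29 bases before the start. CDC20 holds one 65 bases before the start and one on the other strand 178 bases before it. RefSeq windows were found for 8 of the 10 genes, AURKA and UBE2C having none in the table, and the 8 have 18 windows in all, up to 4 for a gene. Of the 18 windows, 7 held TTTGAA or TTCGAA on either strand, and they belong to 6 genes: 5 with TTTGAA and CDC25B with TTCGAA. Among 35116 promoter windows of 300 bases, 15.2% held TTTGAA, 1.45% TTCGAA and 16.4% either. Windows of a gene can overlap, so they are not independent. The matches of the other 4 genes are shown in stretches of 30 bases, on the gene's strand, with the matched letters in capitals, since their distances from the start differ.
CDC25B: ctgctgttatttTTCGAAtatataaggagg
CDC25C: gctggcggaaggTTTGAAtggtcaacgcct
FBXO5: ttaggcaccaaaTTCAAAgattttaaaagt
FZR1: ttcctgtattgaTTTGAAtcgcgggagacg
These begin 38 bases before the start in CDC25B, 30 in CDC25C and 40 in FBXO5, and 226 in FZR1. Each distance is from a single start of the gene. In another window of CDC25C the same match begins 44 bases after the start, and the remaining windows of these 4 genes held neither motif. The windows of AURKB and PTTG1 held neither motif. A match describes letters in this window, not a binding site.

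FBXO5, whose product EMI1 blocks the APC/C from S phase until mitotic entry, had the lowest GC content of the 10 genes and changed most with the correction. It measured 9.65 and 8.51 FPKM at 400 Pa, 8.08 and 8.01 at 1 kPa, 13.0 and 15.6 at 6 kPa, 15.8 and 13.8 at 60 kPa and 12.1 and 12.9 at 25 mM. The 6 kPa, 60 kPa and 25 mM libraries were all above those at 400 Pa. As deposited, the log2 difference was 0.65 ± 0.13 at 60 kPa and 0.42 ± 0.13 at 25 mM. GC-corrected it was 0.12 ± 0.08 and -0.16 ± 0.08, with the sign in high glucose turned.

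UBE2C, the enzyme that starts ubiquitin chains for the APC/C, has a middle GC content of 51.1% and hardly changed with the correction. It measured 91.8 and 92.7 FPKM at 400 Pa, 90.9 and 75.6 at 1 kPa, 120 and 121 at 6 kPa, 121 and 108 at 60 kPa and 84.3 and 84.0 at 25 mM. Both stiffer gels were above 400 Pa and high glucose was below it. Its log2 difference was 0.31 ± 0.10 at 60 kPa and -0.13 ± 0.10 at 25 mM, and GC-corrected 0.34 ± 0.07 and -0.13 ± 0.07. PTTG1, the separase inhibitor securin and an APC/C substrate, measured 108 and 108 FPKM at 400 Pa, 96.9 and 94.9 at 1 kPa, 127 and 154 at 6 kPa, 184 and 153 at 60 kPa and 127 and 125 at 25 mM. Its libraries at 6 kPa, 60 kPa and 25 mM were above those at 400 Pa. The log2 difference was 0.63 ± 0.12 at 60 kPa and 0.22 ± 0.12 at 25 mM, and GC-corrected 0.49 ± 0.07 and 0.02 ± 0.07.

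Set side by side, most of the 10 genes were higher on the stiff gel and most were lower in high glucose. At 60 kPa, 7 lay above 400 Pa in both libraries (41.3% of the 12820 genes tested did), CDC25B and FZR1 lay below (29.4% did) and AURKB overlapped. In high glucose 2 lay above (43.9% of genes did), 6 lay below (31.1% did), and AURKA and CDC25C overlapped. These contrasts were used to choose the genes and nothing is read from the counts. The 2 comparisons share the 400 Pa libraries. With 1 of the 4 libraries compared left out, the difference of PLK1 ran from 0.32 to 0.43 at 60 kPa and from -0.58 to -0.47 at 25 mM. That of CDC20 ran from 0.12 (without the deeper 400 Pa library) to 0.26 at 60 kPa and from -0.72 to -0.58 at 25 mM. Over all genes, the calls by limma on log2(FPKM + 1) at an adjusted p under 0.05 were 1934 higher and 788 lower at 60 kPa and 2259 higher and 877 lower at 25 mM, and with libraries recentred on their median ratio 1656 and 1222, and 1833 and 1621.

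**Figure D2:**
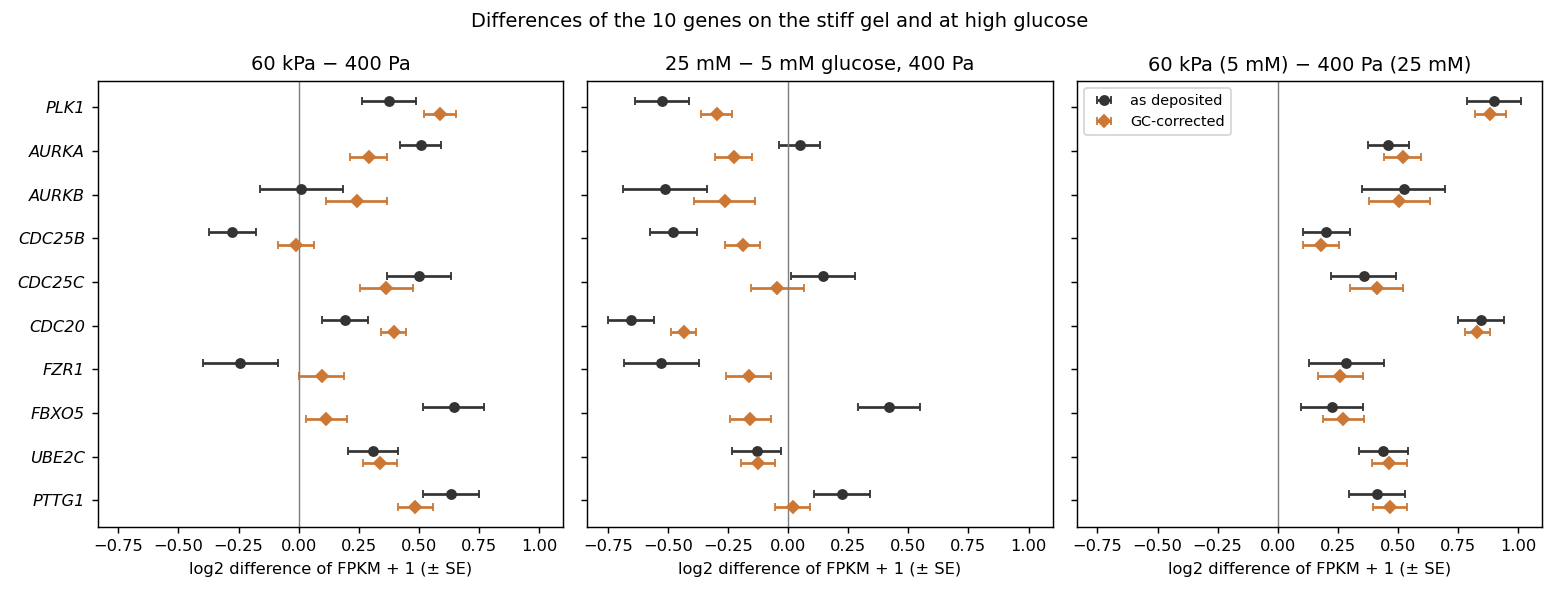
Log2 difference of FPKM + 1 (horizontal axes, bars are SE) of each gene at 60 kPa against 400 Pa, at 25 mM against 5 mM glucose on 400 Pa, and at 60 kPa in 5 mM against 400 Pa in 25 mM, from values as deposited (circles) and GC-corrected (diamonds). FBXO5 moves from 0.65 to 0.12 at 60 kPa with the correction, while the values of the third panel change little.

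The dependence on GC content ran through both responses. Over the 10 genes, Spearman's rho between GC content and the log2 difference was -0.94 at 60 kPa and -0.79 at 25 mM, and over 12650 genes it was -0.72 and -0.78. PLK1, CDC20 and AURKB, all with a GC content between 57.0 and 57.9%, lay above the median of genes of like GC content at 60 kPa and below it at 25 mM. GC-corrected, 9 of the 10 genes were above 0 at 60 kPa and 9 were below 0 at 25 mM, with medians of 0.32 and -0.18 where all genes had 0.02 and 0.00. The genes below 0 at 25 mM included PLK1 and CDC20, which the choice of the set named. All 10 genes were picked by their differences in both comparisons, so nothing is read from these counts and medians. The part of the library preparation in this dependence was not tested.

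**Figure D3:**
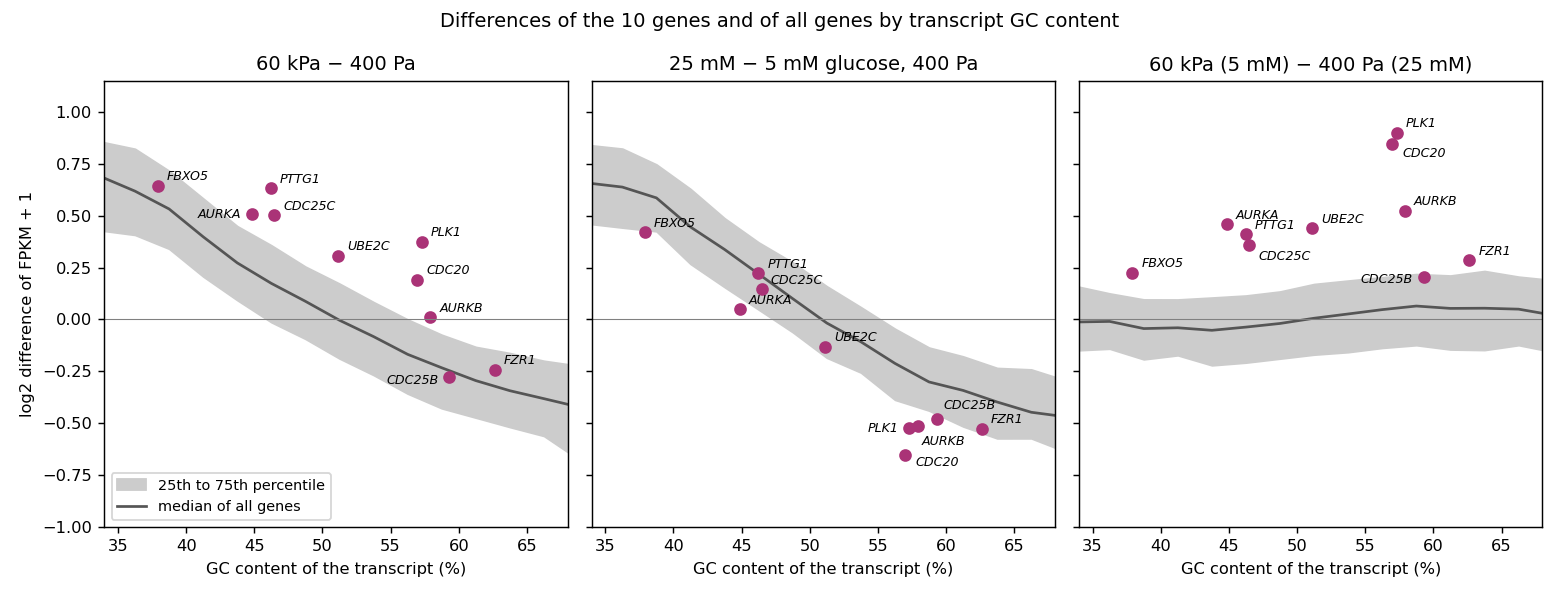
Log2 difference of FPKM + 1 (vertical axis) against GC content of the transcript in percent (horizontal axis) for the 10 genes (points) in the same 3 comparisons, with the median (line) and the 25th to 75th percentiles (band) of all genes in bins of GC content. The band slopes down at 60 kPa and at 25 mM and is nearly flat in the third panel, where the 10 genes lie above the median.

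The stiff gel in 5 mM glucose and the soft gel in high glucose could be set against each other directly. They differ in both stiffness and glucose, share no library, and have libraries that follow GC content alike (rho over all genes 0.12, over the 10 genes 0.02). All 10 genes were higher in both libraries at 60 kPa than in both at 25 mM, where 23.9% of all genes were. The log2 difference was 0.90 ± 0.11 for PLK1 and 0.84 ± 0.10 for CDC20. These were the highest of the 10, ahead of AURKB at 0.52 ± 0.17, AURKA at 0.46 ± 0.09, UBE2C at 0.44 ± 0.10, PTTG1 at 0.41 ± 0.12 and CDC25C at 0.36 ± 0.13. FZR1 was at 0.29 ± 0.16, FBXO5 at 0.23 ± 0.13 and CDC25B at 0.20 ± 0.10. The median of the 10 was 0.43 where that of all genes was 0.00. With 1 of the 4 libraries left out the difference ran from 0.85 to 0.95 for PLK1 and from 0.80 to 0.89 for CDC20. The GC-corrected values ran from 0.18 (CDC25B) to 0.88 (PLK1). Over all genes 55 were called higher and 169 lower, and with recentred libraries 138 and 210. Because the contrast was part of how the genes were picked, these values are a description.

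At 1 kPa, 9 of the 10 genes lay below 400 Pa in both libraries (26.3% of all genes did), FZR1 being the exception. The differences were small, from -0.30 ± 0.17 for AURKB to -0.10 ± 0.11 for PLK1 among those 9, and GC-corrected from -0.28 ± 0.13 (AURKB) to -0.08 ± 0.06 (PLK1). Their median over the 10 was -0.16 as deposited and -0.14 GC-corrected. None of the 12820 genes was called by limma with Benjamini-Hochberg adjustment (0.0%), 776 had an unadjusted p under 0.05, and limma-voom on recovered reads called 186. The 1 and 6 kPa gels belong to the stiffness series by which the genes were chosen and share the 400 Pa libraries with the other comparisons, so the values of the 10 genes carry no p.

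At 6 kPa, PLK1, AURKA, AURKB, FBXO5, UBE2C and PTTG1 lay above 400 Pa in both libraries (23.2% of all genes did), CDC25B lay below (18.2% did) and CDC25C, CDC20 and FZR1 overlapped. The log2 difference was 0.60 ± 0.13 for FBXO5, 0.38 ± 0.10 for UBE2C, 0.37 ± 0.12 for PTTG1 and 0.31 ± 0.11 for PLK1. The 2 libraries at 6 kPa follow GC content in opposite directions. GC-corrected, the differences were 0.44 ± 0.07 for UBE2C, 0.41 ± 0.08 for FBXO5, 0.39 ± 0.06 for PLK1 and 0.37 ± 0.07 for PTTG1. CDC20 was at 0.20 ± 0.05 on that scale and CDC25B at -0.09 ± 0.07. Without the shallower 6 kPa library, a choice made after seeing the data, the GC-corrected values were 0.45 for UBE2C, 0.45 for FBXO5, 0.44 for PLK1 and 0.30 for PTTG1. As deposited and without the deeper 6 kPa library, FBXO5 was at 0.72 and PTTG1 at 0.51. The calls over all genes were 7 higher and 38 lower, and with recentred libraries 27 and 57.

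Over the 4 gels in 5 mM glucose, the levels were lowest at 1 kPa in mean for all of the 10 genes except CDC25B and FZR1. The means of PLK1, CDC20, UBE2C, PTTG1 and FBXO5 were higher from 6 kPa on, and AURKA and CDC25C stood highest at 60 kPa. For PLK1 and UBE2C the 6 and 60 kPa libraries overlapped, as they did for CDC20, FBXO5 and PTTG1. The slope per 10-fold of stiffness, fitted to 8 libraries, ran from -0.12 ± 0.04 (CDC25B) and -0.12 ± 0.07 (FZR1) to 0.37 ± 0.09 (FBXO5) and 0.35 ± 0.07 (PTTG1) on the log2 scale. It was 0.21 ± 0.06 for PLK1 and 0.14 ± 0.06 for CDC20. GC-corrected, PLK1 had the steepest slope of the 10 at 0.31 ± 0.04, followed by PTTG1 at 0.28 ± 0.05 and CDC20 at 0.23 ± 0.05, and FZR1 and CDC25B were at 0.05 ± 0.04 and 0.01 ± 0.04. The stiffness series was part of the choice, so these slopes are a description. Over all genes 2150 slopes were called above 0 and 840 below, and with recentred libraries 1740 and 1252.

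Ratios within a library give the balance of paired regulators without the library's own scale. The ratio of CDC20 to FZR1, the early and late coactivators, was 10.4 and 9.83 at 400 Pa, 8.18 and 7.93 at 1 kPa, 9.37 and 11.2 at 6 kPa, 14.0 and 13.7 at 60 kPa and 8.65 and 10.5 at 25 mM. Both 60 kPa libraries were above all others. The ratio of AURKA to AURKB was 1.03 and 1.01 at 400 Pa, 1.01 and 1.25 at 1 kPa, 0.882 and 1.05 at 6 kPa, 1.20 and 1.76 at 60 kPa and 1.44 and 1.61 at 25 mM, so that the high glucose pair was above all libraries at 400 Pa, 1 kPa and 6 kPa. CDC25C to CDC25B stood at 0.105 and 0.119 at 400 Pa, 0.112 and 0.0900 at 1 kPa, 0.123 and 0.151 at 6 kPa, 0.189 and 0.206 at 60 kPa and 0.150 and 0.203 at 25 mM. PLK1 to AURKA was lowest in high glucose, with 1.23 and 1.18 against 1.63 to 2.36 elsewhere. CDC20 to PTTG1 was too, with 0.710 and 0.724 against 0.911 to 1.39. The members of these pairs differ in GC content, so the ratios were also taken from GC-corrected values. CDC20 to FZR1 was then 13.1 and 12.6 at 60 kPa, still above the other libraries, of which none exceeded 10.6. AURKA to AURKB was 1.17 and 1.28 at 25 mM, within the 0.976 to 1.48 of the other libraries. CDC25C to CDC25B was 0.164 and 0.173 at 60 kPa, and at 25 mM 0.122 and 0.162, the first within the range at 400 Pa. PLK1 to AURKA at 25 mM came close to the 1.57 and 1.54 at 400 Pa, with 1.47 in the shallower library. CDC20 to PTTG1 was 0.839 and 0.871 at 25 mM, below the 0.997 to 1.21 elsewhere.

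**Figure D4:**
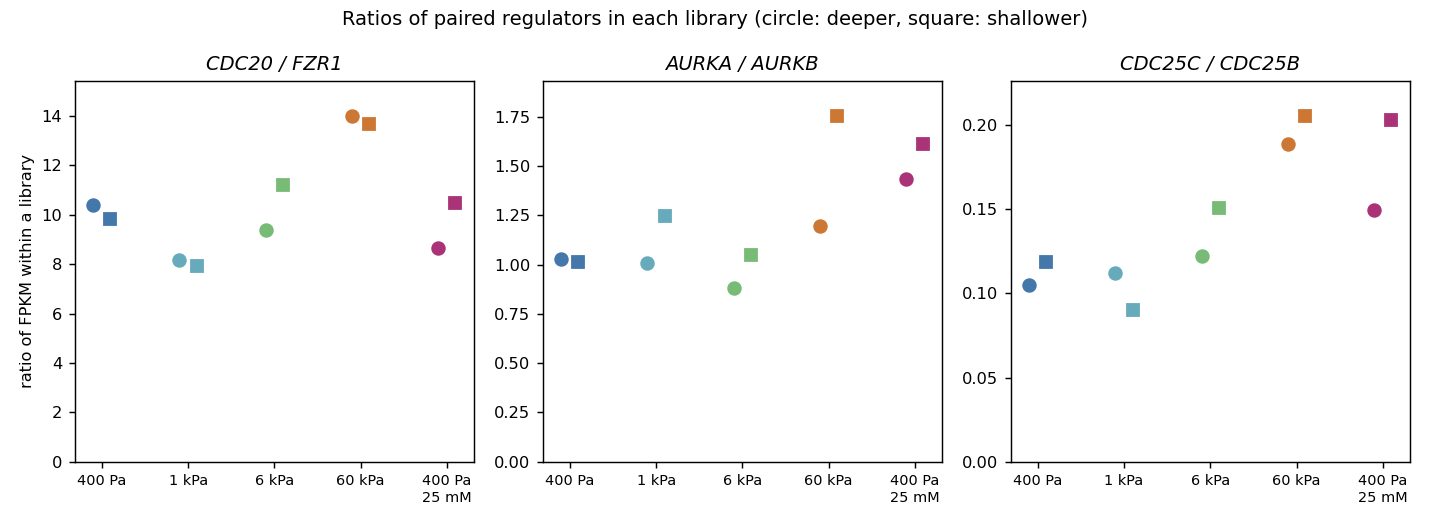
Ratio of FPKM within each library (vertical axis, from 0) for CDC20 to FZR1, AURKA to AURKB and CDC25C to CDC25B, by group (horizontal axis), with circles for the deeper and squares for the shallower library. CDC20 to FZR1 is highest in the 60 kPa libraries at 14.0 and 13.7, and AURKA to AURKB and CDC25C to CDC25B have their highest means at 60 kPa and 25 mM.

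The 10 genes fell into loose sets by how they varied over the 10 libraries, which share groups, depth differences and the dependence on GC content. AURKA and CDC25C varied together (Pearson's r 0.900), as did FBXO5 and PTTG1 (0.943) and CDC25B and FZR1 (0.843). PTTG1 also followed AURKA (0.893) and CDC25C (0.882), so the first pairs were not apart. AURKA, CDC25C, FBXO5 and PTTG1 have the lowest GC content of the 10 genes, 37.9 to 46.5%. CDC25B and FZR1 have the highest, 59.3 and 62.6%. PLK1 followed CDC20 (0.969) and AURKB (0.823) more than AURKA (0.558). Among 7692 other genes averaging 5 FPKM or more, those most like PLK1 over the 10 libraries were DDX39A (r 0.974), SH2D2A (0.969), TUBB4B (0.967), MYBL2 (0.967) and TUBA4A (0.966), whose GC content of 55.7 to 60.8% is near the 57.3% of PLK1.

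The rest of the pathway was followed in 8 lists. Of 69 genes, 68 passed the filter on low values, AURKC being the exception. At 60 kPa, 30 of the 68 rose and 0 fell (15.1% and 6.15% of all genes did), and GC-corrected 27 rose and 0 fell, with 23 rising on both scales (GC-corrected, 5.7% of all genes rose). In high glucose 24 rose and 2 fell as deposited (17.6% and 6.84% of all genes did). GC-corrected, 5 rose and 3 fell there (2.74% and 2.51% of all genes did), with 5 rising on both scales. At 6 kPa 1 rose as deposited and 7 GC-corrected, where 0.0546% and 0.964% of all genes did, and at 1 kPa 0 changed. Between 60 kPa and high glucose 5 were higher at 60 kPa as deposited and 22 GC-corrected, where 0.429% and 3.77% of all genes were, and 0 were lower. The counts move with single libraries. Without the shallower or the deeper 400 Pa library, 9 and 14 list genes were called at 60 kPa and 0 in high glucose, and without the deeper 60 kPa library 15 were called at 60 kPa. Without the deeper or shallower 25 mM library 4 and 0 were called in high glucose, and without the deeper or shallower 6 kPa library 41 each were called at 60 kPa and 36 each in high glucose. At 6 kPa, 24 were called without its deeper library. Between 60 kPa and high glucose, 19 and 18 were called without the deeper and shallower 6 kPa library, and 0 without either 25 mM library or the deeper 60 kPa library.

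Of the subunits of the APC/C itself and UBE2S, the chain-elongating enzyme, 15 genes in all, 1 rose at 60 kPa and 3 rose in high glucose as deposited, where 15.1% and 17.6% of all genes did. After GC correction 0 changed at 60 kPa and 1, ANAPC5, fell in high glucose. Their median log2 difference at 60 kPa was 0.11, and 0.00 GC-corrected, where all genes had 0.06 and 0.02. CDC27, a scaffold subunit that binds coactivators, went from 15.0 ± 0.838 FPKM at 400 Pa to 25.9 ± 3.49 at 60 kPa (SD, n = 2; log2 difference 0.75 ± 0.16, limma, adjusted p 0.014), and GC-corrected was at 0.31 ± 0.09 (adjusted p 0.067). ANAPC4 and ANAPC13 rose in high glucose by 0.64 ± 0.16 (adjusted p 0.023) and 0.40 ± 0.12 (adjusted p 0.044), and GC-corrected were at 0.12 ± 0.11 and -0.10 ± 0.10 with no call. 

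Most genes of the mitotic checkpoint, which keeps CDC20 from activating the APC/C, rose on the stiff gel. Of 8 genes, 5 rose at 60 kPa on both scales (BUB1, BUB1B, BUB3, MAD2L1 and TTK), with a median of 0.61 and GC-corrected 0.39. Of all genes 15.1% rose there as deposited and 5.7% GC-corrected. MAD1L1 and MAD2L1BP had lower means at 60 kPa than at 400 Pa as deposited, 4.17 against 6.27 FPKM and 14.4 against 16.5, with no call. MAD2L1, which binds CDC20, measured 33.5 ± 1.85 FPKM at 400 Pa and 68.6 ± 5.31 at 60 kPa. Its log2 difference was 1.01 ± 0.13 (limma, adjusted p 0.0034), and 0.53 ± 0.07 GC-corrected (adjusted p 0.0036). The kinase BUB1 rose by 0.77 ± 0.13 (adjusted p 0.0071) and GC-corrected by 0.42 ± 0.08 (adjusted p 0.012). In high glucose 4 of the 8 rose as deposited and 2 GC-corrected, where 17.6% and 2.74% of all genes did. The 2 were TTK and BUB3, the latter by 0.43 ± 0.09 (limma, adjusted p 0.014) and GC-corrected by 0.27 ± 0.06 (limma, adjusted p 0.034). MAD2L1 in high glucose went from 0.59 ± 0.13 (adjusted p 0.017) to 0.06 ± 0.07 (adjusted p 0.72) with the correction.

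Of the 10 partners and relatives of the kinases tested, 5 rose at 60 kPa as deposited and 6 GC-corrected (15.1% and 5.7% of all genes did). TPX2, which activates Aurora A on the spindle, measured 69.9 ± 1.11 FPKM at 400 Pa, 105 ± 8.31 at 60 kPa and 71.3 ± 4.53 at 25 mM. It rose by 0.58 ± 0.11 at 60 kPa (limma, adjusted p 0.010; GC-corrected 0.44 ± 0.07, adjusted p 0.0072) and was at 0.03 ± 0.11 in high glucose (adjusted p 0.88; GC-corrected -0.16 ± 0.07, adjusted p 0.22). BIRC5 and CDCA8, subunits of the passenger complex with AURKB, rose at 60 kPa by 0.53 ± 0.11 (adjusted p 0.015) and 0.40 ± 0.12 (adjusted p 0.040), and GC-corrected by 0.58 ± 0.09 and 0.44 ± 0.09 (adjusted p 0.0052 and 0.019). In high glucose they were at -0.05 ± 0.11 and -0.14 ± 0.12, and GC-corrected at -0.03 ± 0.09 and -0.12 ± 0.09, with no call. TPX2 and BIRC5 were higher at 60 kPa than in high glucose by 0.55 ± 0.11 (adjusted p 0.0498) and 0.59 ± 0.11 (adjusted p 0.044), and GC-corrected by 0.61 ± 0.07 (adjusted p 0.0023) and 0.61 ± 0.09 (adjusted p 0.0054).

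CDK1 and its cyclins, the machinery that CDC25 phosphatases switch on, rose at 60 kPa. Of 10 genes of CDK1 activation and its brakes, 7 rose as deposited and 6 GC-corrected (15.1% and 5.7% of all genes did), with medians of 0.54 and 0.46. WEE1, the kinase that holds CDK1 inactive, was called higher only GC-corrected, and MASTL and ARPP19 only as deposited. PKMYT1 had a lower mean at 60 kPa than at 400 Pa as deposited, 17.2 against 21.2 FPKM, with no call. Cyclin B1 (CCNB1) measured 106 ± 4.02 FPKM at 400 Pa, 182 ± 10.2 at 60 kPa and 110 ± 4.61 at 25 mM. It rose at 60 kPa by 0.77 ± 0.09 (limma, adjusted p 0.0023; GC-corrected 0.47 ± 0.06, adjusted p 0.0025). In high glucose it was at 0.06 ± 0.09 (adjusted p 0.68) as deposited and fell by 0.31 ± 0.06 GC-corrected (adjusted p 0.027). The direct difference between 60 kPa and high glucose was 0.72 ± 0.09 (adjusted p 0.0078). CDK1, with a GC content of 35.6%, rose at 60 kPa by 1.34 ± 0.18 (adjusted p 0.0034; GC-corrected 0.75 ± 0.10, adjusted p 0.0032) and in high glucose by 1.12 ± 0.18 (adjusted p 0.0073; GC-corrected 0.49 ± 0.10, adjusted p 0.032). CCNA2, the cyclin of S and G2 phase, rose at 60 kPa by 0.81 ± 0.11 (adjusted p 0.0034) and in high glucose by 0.36 ± 0.11 (adjusted p 0.041), the second of which was not called after GC correction (-0.06 ± 0.10). On the GC-corrected scale cyclin B1 mRNA was thus lower in high glucose and CDK1 mRNA higher.

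The factors that transcribe G2 and M phase genes gave 3 rises among 7 genes at 60 kPa on each scale. Of all genes 15.1% rose there as deposited and 5.7% GC-corrected. FOXM1, which activates many mitotic genes, rose at 60 kPa by 0.38 ± 0.09 (limma, adjusted p 0.023; GC-corrected 0.55 ± 0.05, adjusted p 0.00093). MYBL2, the MuvB partner B-Myb, measured 68.3 ± 1.41 FPKM at 400 Pa, 81.4 ± 10.8 at 60 kPa and 45.3 ± 2.25 at 25 mM. It fell in high glucose by 0.58 ± 0.11 (adjusted p 0.011; GC-corrected -0.26 ± 0.07, adjusted p 0.068). At 60 kPa it was at 0.24 ± 0.11 (adjusted p 0.15; GC-corrected 0.54 ± 0.07, adjusted p 0.0029). FOXM1 and MYBL2 were the 2 of the 7 higher at 60 kPa than in high glucose on both scales, where 0.429% and 3.77% of all genes were. As deposited they were higher by 0.60 ± 0.09 (limma, adjusted p 0.018) and 0.83 ± 0.11 (limma, adjusted p 0.011). LIN9, a MuvB subunit with a GC content of 36.7%, rose at 60 kPa by 1.07 ± 0.17 (adjusted p 0.0055) and in high glucose by 0.82 ± 0.17 (adjusted p 0.013), and GC-corrected by 0.50 ± 0.11 (adjusted p 0.024) at 60 kPa with no call in high glucose.

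Downstream of the APC/C, other substrates rose on the stiff gel. Of 10 substrates besides PTTG1, 7 rose at 60 kPa and 6 GC-corrected (15.1% and 5.7% of all genes did), with medians of 0.97 and 0.51. In high glucose 6 rose as deposited and 2 GC-corrected (17.6% and 2.74% of all genes did). ANLN, a cytokinesis scaffold, measured 33.8 ± 1.85 FPKM at 400 Pa, 82.9 ± 3.47 at 60 kPa and 64.7 ± 1.83 at 25 mM, and rose on both scales in both (60 kPa 1.27 ± 0.13, limma, adjusted p 0.0014, GC-corrected 0.82 ± 0.06, adjusted p 0.00017). CENPF, a kinetochore protein, rose at 60 kPa by 1.17 ± 0.14 (adjusted p 0.0022; GC-corrected 0.75 ± 0.07, adjusted p 0.00071). RRM2, a subunit of ribonucleotide reductase, rose at 60 kPa by 0.56 ± 0.11 (adjusted p 0.011; GC-corrected 0.20 ± 0.05, adjusted p 0.047) and in high glucose was at 0.07 ± 0.11 as deposited and fell by 0.35 ± 0.05 GC-corrected (adjusted p 0.014). Of 4 genes of separase and cohesin protection, 2 rose at 60 kPa and 1 GC-corrected (15.1% and 5.7% of all genes did). SGO2, a protector of centromeric cohesin, rose by 1.59 ± 0.21 (limma, adjusted p 0.0032) and GC-corrected by 0.98 ± 0.14 (adjusted p 0.0041). SGO1 rose by 0.73 ± 0.17 (limma, adjusted p 0.017) as deposited. ESPL1, the separase that securin inhibits, fell in high glucose by 0.56 ± 0.16 (adjusted p 0.036; GC-corrected -0.34 ± 0.12, adjusted p 0.14). Of the 4 genes of the SCF ligase that destroys EMI1 and WEE1, none changed at 60 kPa and 1 rose in high glucose, where 17.6% of all genes did. This was SKP1, by 0.45 ± 0.11 (limma, adjusted p 0.024), and it was not called after GC correction (0.00 ± 0.06).

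**Figure D5:**
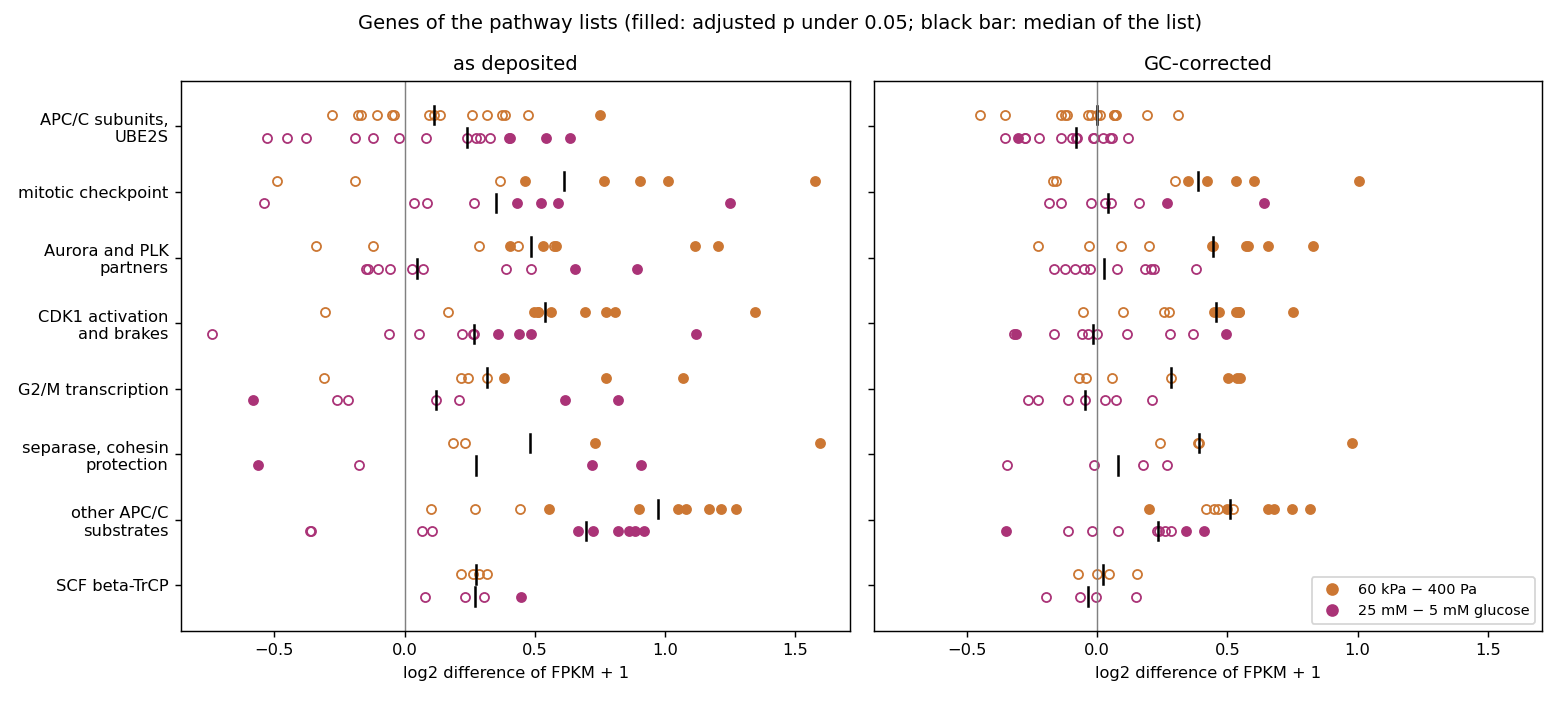
Log2 difference of FPKM + 1 (horizontal axes) of each gene of the 8 pathway lists (vertical axis) at 60 kPa against 400 Pa (orange) and at 25 mM against 5 mM glucose (purple), as deposited (left) and GC-corrected (right), with filled points for an adjusted p under 0.05 by limma and a bar at each list's median. At 60 kPa the checkpoint, CDK1 and substrate lists keep medians of 0.39, 0.46 and 0.51 after the correction, and the subunits of the APC/C are at 0.00.

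The authors' deposited table of 60 kPa over 400 Pa gave log2 fold changes of 0.29 for PLK1, 0.44 for AURKA, -0.01 for AURKB, 0.10 for CDC20, 0.22 for UBE2C and 0.55 for PTTG1. For 25 mM over 5 mM glucose the authors' deposited table gave -0.65 for PLK1, -0.04 for AURKA, -0.54 for AURKB, -0.77 for CDC20, -0.27 for UBE2C and 0.11 for PTTG1. In the authors' deposited table the values of CDC25B, FZR1, FBXO5 and CDC25C were -0.38, -0.37, 0.62 and 0.45 at 60 kPa and -0.60, -0.66, 0.33 and 0.05 at 25 mM. These tables count 7 of the 10 genes on another transcript than the FPKM table.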

How the data were processed

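Libraries were made from poly(A) RNA of MCF10A cells. STAR as the aligner, hg19 as the build and HOMER as the counter are named, without versions, per the submitters' processing notes. The deposited FPKM values were made by the authors from exon reads of 1 transcript per gene, per the file headers. The log2 values, log2 fold changes and adjusted p-values of 2 comparison tables were computed by the authors with HOMER, per the file headers, DESeq2 being the tool that the submitters' notes name for it. Column headings give the group and no replicate number, and libraries of a group are told apart by depth. The deeper 1 kPa library was placed by its column heading, since the directory named in the authors' command states no gel. Whole reads could be recovered from FPKM, length and library total: 99.98 to 100% of the tested values lay within 0.12 of a whole number.

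The log2(FPKM + 1) values of 12820 genes averaging 0.5 FPKM or more were fitted in R 4.3.3 with limma 3.58.1, using a trend in eBayes, over all 10 libraries in 5 groups (5 residual and 3.98 prior degrees of freedom). A fold change on this scale understates the change of low genes. The slope used the 8 libraries at 5 mM. Adjusted p-values are Benjamini-Hochberg over all genes tested, called under 0.05. GC content was taken from GENCODE transcripts, and the GC-corrected values subtract a spline (5 degrees of freedom) of each library's deviation on GC content over 12650 genes. Alternatives were a pseudocount of 0.1, no filter, median-ratio recentring, limma-voom on recovered reads, the deposited log2 values (2 residual degrees of freedom, prior 46.06 and 182.6) and each library left out. The fit was also run on simulated counts that had no dependence on GC content. Its outcome is not given here, and nothing is read from it. The 10 genes, the lists and the tests were chosen with earlier results of these data known. Named list genes are up to 3 per list, the highest in mean FPKM among those called in any comparison with 400 Pa. ANAPC5, BUB1B, TTK, MAD1L1, MAD2L1BP, AURKC, WEE1, PKMYT1, MASTL and ARPP19 fall outside that rule and were named after their values were seen. PLK2, PLK3, PLK4 and CDC25A also fall outside it and are named as close relatives of the 10 genes, and UBE2S is named as part of its list. Promoter windows are RefSeq's on GRCh38.p14, and no coordinates were converted between builds. Depth sets the precision, which is lowest in the shallower 6 kPa library. One further marker gene is not reported here.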

Additional observations from a re-analysis of the deposited data

How the results depend on the processing

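No paired analysis was possible because the table columns carry no replicate numbers. The number of genes called at 60 kPa (2722) became 1278 GC-corrected, 5059 with limma-voom, 6589 on the deposited log2 values and 1809 without a filter. At 25 mM (3136) it became 663, 5829, 7107 and 2015 in that order, and at 1 kPa (0) 5 GC-corrected, 186 with limma-voom and 4 without a filter. At 6 kPa (45) it became 252, 441 and 9, and 84 with recentred libraries. For 60 kPa against high glucose (224) it was 882, 760 and 145, and 348 recentred, and for the slope (2990) 1060 GC-corrected. GC-corrected without the shallower 6 kPa library, a choice made after seeing the data, the counts were 1895 at 60 kPa, 1217 at 25 mM, 82 at 1 kPa, 210 at 6 kPa, 1409 for 60 kPa against high glucose and 1186 for the slope. With 1 library left out, they ran from 151 (without the shallower 400 Pa library) to 4503 (without the shallower 6 kPa library) at 60 kPa, and from 0 (without either 400 Pa library) to 5142 (without either 6 kPa library) at 25 mM. They ran from 0 to 6 at 1 kPa, from 2 (without either 400 Pa library) to 1777 (without the deeper 6 kPa library) at 6 kPa, from 32 (without the deeper 25 mM library) to 709 (without the deeper 6 kPa library) for 60 kPa against high glucose, and from 811 (without the deeper 60 kPa library) to 4359 (without the deeper 6 kPa library) for the slope. FBXO5 at 25 mM reversed to -0.16 GC-corrected, with and without the shallower 6 kPa library. GC-corrected, 5 further differences of the 10 genes changed sign: AURKA and CDC25C at 25 mM, FZR1 at 60 kPa, and the slopes of FZR1 and CDC25B. The cause of these shifts was not tested. With a pseudocount of 0.1, all 60 differences of the 10 genes kept their direction. Sign changes numbered 2 with recentred libraries, 2 with limma-voom and 2 on the deposited log2 values. With 1 library left out there were up to 3 (without the deeper 400 Pa library). Depth limits the lowest genes most: CDC25C rested on 82 reads in the shallower 6 kPa library, which had 2.98 M mapped reads.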

Other observations

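Close relatives of the 10 genes were present at other levels. PLK2, a Polo-like kinase linked to stress and centriole duplication, had a mean of 9.22 FPKM over the 10 libraries, PLK3 5.55 and PLK4, the kinase that starts centriole duplication, 6.06. CDC25A, the phosphatase that also acts at the start of S phase, had 11.2 FPKM, near CDC25C. AURKC and FBXO43, known mainly from the germ line, were at 0.222 and 0.390 FPKM. CDC20B was at 0.0297 FPKM and PLK5 at 0.0082. PLK4 lay at 3.71 and 3.28 FPKM at 400 Pa, at 9.46 and 8.04 at 60 kPa and at 8.06 and 6.65 at 25 mM, while PLK3 lay at 5.67 and 5.45, at 4.24 and 4.13, and at 5.91 and 4.07. These values are as deposited, and the GC content is 40.0% for PLK4 and 61.2% for PLK3. As deposited, PLK4 was called higher at 60 kPa and in high glucose, and PLK3 was not called. GC-corrected, PLK4 was still called at 60 kPa, but 0 of the 10 partners and relatives tested were called in high glucose. Of all genes 2.74% were called higher there and 2.51% lower on that scale.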
